A study of Mus musculus with 4 samples.

Results

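Nuclear receptors were examined in gastrocnemius muscle of lean and obese mice with and without the glucocorticoid receptor (GR) in their muscle fibers. The members were 43 gene names, the mouse nuclear receptors other than the circadian clock receptors and the first NR4A receptor, and all 43 were found by name among the 22252 gene names of the tables. The mice were 7-week-old males of the C57BL/6J strain in 4 groups, lean GRf/f, lean GRmKO, ob/ob GRf/f and ob/ob GRmKO. Every group carried floxed alleles of Nr3c1, the GR gene, so that the GRf/f mice are floxed controls without Cre rather than wild-type mice. GRmKO mice also carried Cre driven by the Acta1 promoter, which is active in skeletal muscle fibers, so the other cells of the muscle keep GR. The ob/ob mice lack leptin and become obese, and no corticosterone was given to any of these groups. RNA of 3 mice was pooled per group and sequenced as 1 library, so how far mice of a group vary is unknown, and no p-value is given.

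Nuclear receptors are transcription factors, most of which bind a small lipid-soluble ligand such as a steroid, thyroid hormone, retinoic acid or a fatty acid. Steroid receptors typically bind DNA as pairs of the same receptor, whereas thyroid hormone, retinoic acid, vitamin D, fatty acid and oxysterol receptors pair with a retinoid X receptor. Orphan receptors have no established natural ligand or act without one. In skeletal muscle the family is known for control of protein balance by GR, of contractile and metabolic genes by thyroid hormone receptors, and of fatty acid oxidation and mitochondria by PPARs and estrogen-related receptors.

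Library totals ran from 19897754 to 20959781 expected counts, of which the 50 most abundant genes took between 45.1% and 48.1%. A level is given as CPM, the count scaled to an equal library total, and, where genes are compared with each other, as CPM per kb of the longest protein-coding transcript of the gene. Intervals are exact 95% intervals for counting error only. A member was compared between libraries where its mean over the 4 libraries was at least 50 expected counts, which 27 of the 43 members and 11272 of all gene names met. Past 1.5-fold in CPM is the size at which a difference is counted below. Markers of fast fibers summed to between 82963 and 104883 CPM and those of slow fibers to between 488 and 1554 CPM, so the libraries carried the markers of a fast muscle. In each library, all of the 8 fast and 8 slow fiber markers had counts.

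The family was led by the retinoid X receptor Rxra, the estrogen-related receptor Esrra and the thyroid hormone receptor Thra. Their mean levels over the 4 libraries were 37.2, 36.2 and 26.6 CPM per kb. Together they made up between 39.3% and 43.2% of the summed level of all members per kb. The next level, the fatty acid receptor Ppard, was 14.5 CPM per kb, and it was followed by Rxrg at 13.9, the oxysterol receptor Nr1h2 at 13.3, Nr3c1 at 12.9, Nr2f6 at 12.1 and Rxrb at 11.5 CPM per kb. Those 9 members had a mean of at least 10 CPM per kb. The order among neighbors was not firm, because the counting intervals of Rxra and Esrra overlapped in lean GRf/f muscle, at 35.1 to 37.4 and 34.7 to 38.2 CPM per kb, and because the rank of a gene depends on the transcript length it is divided by.

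**Figure D1:**
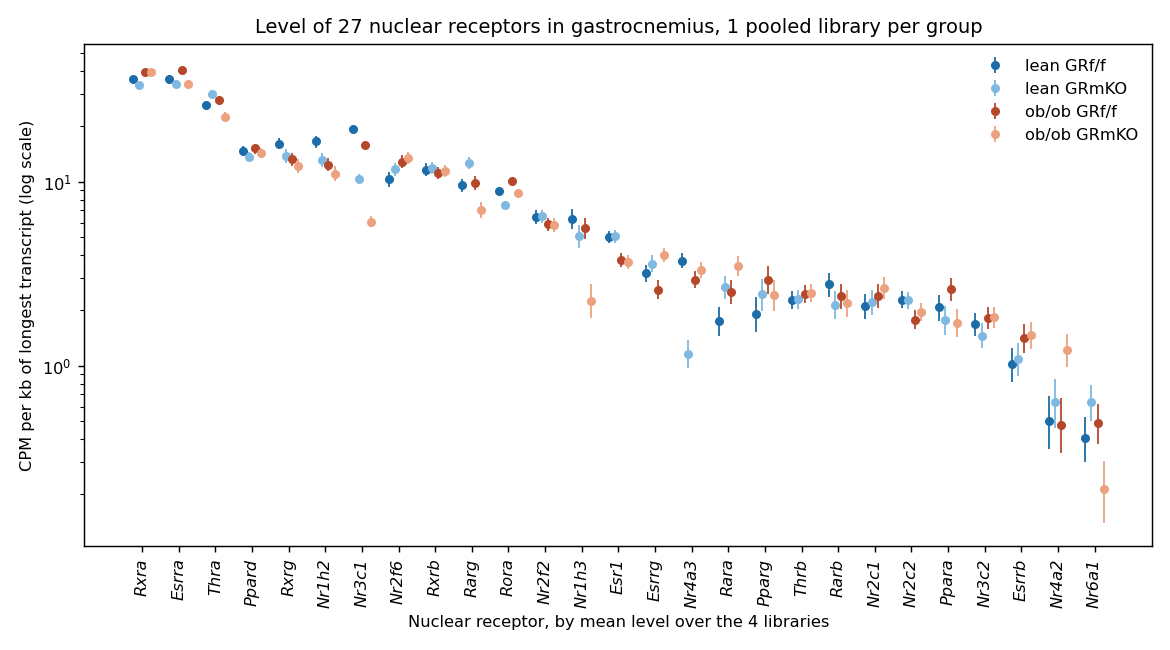
Levels of the 27 members with a mean of at least 50 expected counts, in CPM per kb of the longest transcript on a log axis, with members ordered by their mean level. Each point is 1 library of 3 pooled mice and each bar its 95% counting interval; Rxra, Esrra and Thra stand above the other members in every library, and Nr3c1, Nr1h3, Nr4a3, Nr4a2 and Nr6a1 spread most between libraries.

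Within most receptor subfamilies 1 paralog carried most of the level, and it was the same paralog in all 4 libraries. Thra made up 90.1% to 92.9% of the thyroid hormone receptor level per kb, with Thrb as the remainder. Esrra took 86.1% to 91.0% of the estrogen-related receptors, Ppard 73.2% to 78.7% of the PPARs and Nr1h2 68.9% to 83.1% of the liver X receptors. Rxra took 56.6% to 62.5% of the retinoid X receptors. The retinoic acid receptors shifted most, with Rarg at between 55.4% and 72.5% and Rara at between 12.4% and 27.4% of their level. The share of Rarg was lowest and that of Rara highest in ob/ob GRmKO muscle.

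The summed level of all 43 members was 251 CPM per kb in lean GRf/f, 235 in lean GRmKO, 252 in ob/ob GRf/f and 222 in ob/ob GRmKO muscle. Both GRmKO libraries were thus below both GRf/f libraries. Without Nr3c1 the sums were 231, 225, 236 and 216 CPM per kb, in the same order of groups. These sums are CPM without further scaling. TMM factors, which scale by the bulk of the genes, were 1.04 and 1.08 in the lean libraries and 0.960 and 0.933 in the ob/ob ones. Division by them lowers the lean sums and raises the ob/ob sums, so the order of lean and ob/ob sums depends on the scaling. Retinoid X receptors held the largest share, from 25.2% to 28.4%, and the 2 receptors without a DNA-binding domain held at most 0.0566%.

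**Figure D2:**
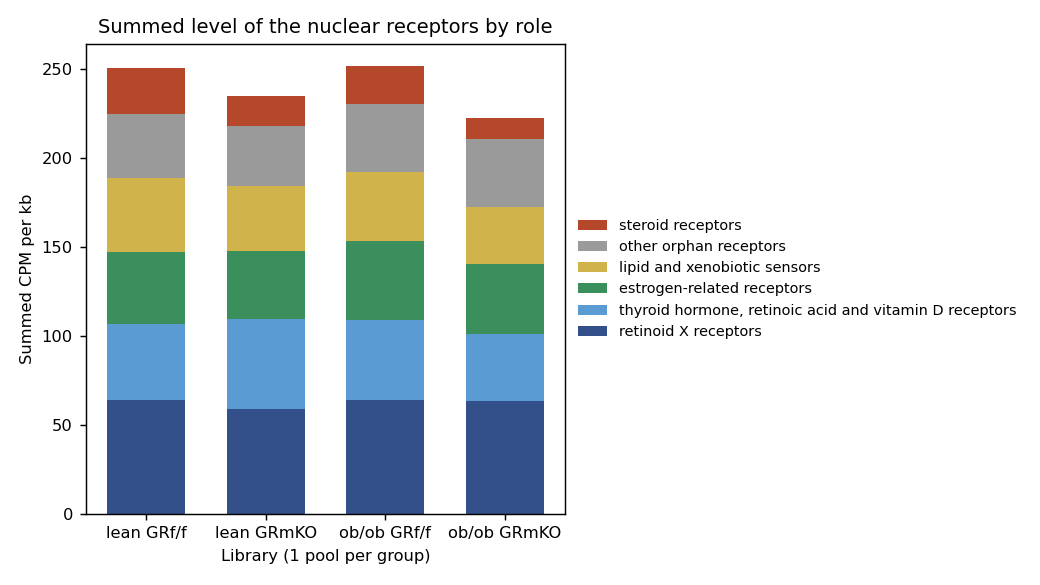
Summed level of the members by role, in CPM per kb, for each of the 4 libraries, stacked from retinoid X receptors at the bottom to steroid receptors at the top. The steroid receptors sum to 26.1 CPM per kb in lean GRf/f and to 11.6 in ob/ob GRmKO muscle, and the retinoid X receptors stay between 59.2 and 64.0; the receptors without a DNA-binding domain are too low to draw.

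Among the steroid receptors, Nr3c1, the gene deleted in muscle fibers, stood at 125 CPM in lean GRf/f, 67.0 in lean GRmKO, 102 in ob/ob GRf/f and 39.1 in ob/ob GRmKO muscle. Both GRmKO libraries were below both GRf/f libraries, by a log2 ratio of -0.90 in lean muscle (0.536 of the GRf/f level) and -1.38 in ob/ob muscle (0.384 of it), with an interval of -1.50 to -1.26 for the latter. The count covers the whole gene, while the floxed exon is only a part of it, so it does not measure the deletion itself. In pooled tissue, fewer cells of a type and less RNA per cell cannot be told apart. Nr3c1 made up 7.74% and 6.28% of the summed member level per kb in the GRf/f libraries, against 4.43% and 2.73% in the GRmKO libraries. Nr3c2, the mineralocorticoid receptor, which also binds corticosterone, was at 9.95, 8.62, 10.8 and 10.9 CPM in the same order of groups. Its log2 ratio between genotypes was -0.21 (-0.51 to 0.09) for the lean and 0.01 (-0.27 to 0.28) for the ob/ob background, so that no difference was detectable at this depth. Esr1, an estrogen receptor, was at 31.8, 32.1, 23.8 and 23.3 CPM. It separated the libraries by obesity and not by genotype, with log2 ratios of -0.42 in GRf/f and -0.46 in GRmKO mice for ob/ob against lean, short of 1.5-fold. With TMM factors these ratios were smaller, at -0.31 and -0.25, the second outside its counting interval of -0.63 to -0.29. Esr2 and Pgr, the other estrogen receptor and the progesterone receptor, had at most 4 expected counts in any library.

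The retinoid X receptors are the shared partners of the thyroid hormone, retinoic acid, vitamin D and lipid receptors. Rxra was at 178 CPM in lean GRf/f, 164 in lean GRmKO, 193 in ob/ob GRf/f and 194 in ob/ob GRmKO muscle. Rxrb ranged from 29.4 to 31.2 CPM, a ratio of 1.06 between its highest and its lowest library, the smallest of the 27 members. Rxrg, the paralog known as enriched in skeletal muscle, was at 34.1, 29.1, 28.0 and 25.8 CPM. None of the 3 passed 1.5-fold in any of the 4 comparisons.

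Thra, the leading thyroid hormone receptor, was at 63.7 CPM in lean GRf/f, 73.9 in lean GRmKO, 68.1 in ob/ob GRf/f and 55.4 in ob/ob GRmKO muscle. It was higher in GRmKO than in GRf/f muscle of lean mice and lower in ob/ob mice, both by more than the counting error and by less than 1.5-fold. Thra shares 263 exonic bases with a gene on the opposite strand, and whether the libraries kept strand is not given in the sources used here. Thrb ranged from 14.2 to 15.4 CPM over the 4 libraries and the interval of its ratio included 0 in every comparison. Rarg was at 28.3, 37.6, 29.1 and 20.8 CPM in the same order of groups. Its log2 ratio of GRmKO to GRf/f was 0.41 (0.25 to 0.57) for lean and -0.48 (-0.66 to -0.30) for ob/ob mice, and ob/ob GRmKO was lower than lean GRmKO muscle by a log2 ratio of -0.85 (-1.03 to -0.68). Rara, at 5.92, 9.04, 8.53 and 11.8 CPM, was lowest in lean GRf/f and highest in ob/ob GRmKO muscle, opposite to Rarg in the latter. It passed 1.5-fold in lean GRmKO against lean GRf/f, at 0.61 (0.27 to 0.95), by a margin that a different scaling of the libraries removed (log2 0.56 with TMM factors, which scale by the bulk of the genes). Rarb was at 8.63, 6.68, 7.44 and 6.83 CPM and passed 1.5-fold in no comparison. Of its 3108 transcript bases, 1793 are also exonic in Top2b on the opposite strand, so part of its count may be shared. Vdr, the vitamin D receptor, had only 8 to 18.0 expected counts per library.

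Of the lipid sensors, Ppard, the PPAR that predominates in muscle, kept within 44.7 to 49.7 CPM over the libraries. Ppara, which drives fatty acid oxidation in liver and heart, was at 7.10 CPM in lean GRf/f, 6.04 in lean GRmKO, 8.94 in ob/ob GRf/f and 5.85 in ob/ob GRmKO muscle. The ob/ob GRf/f library was highest, and the GRmKO to GRf/f log2 ratio in ob/ob mice was -0.61 (-0.94 to -0.27), just past 1.5-fold, and -0.57 with TMM factors, just short of it. Pparg, the adipocyte receptor, was at 4.05, 5.20, 6.23 and 5.15 CPM and was higher in ob/ob GRf/f than in lean GRf/f muscle, at a log2 ratio of 0.62 (0.22 to 1.04). The 6 adipocyte markers summed to 975 CPM in lean GRf/f, 631 in lean GRmKO, 563 in ob/ob GRf/f and 348 in ob/ob GRmKO muscle. In GRmKO against GRf/f muscle of either background 5 of the 6 were lower, beside 3.89% of all genes in lean and 8.47% in ob/ob mice. Between ob/ob and lean GRf/f muscle, where Pparg was higher, Cfd was at 14.4 against 267 CPM and Fabp4 at 308 against 483. Plin1, at 40.4 against 58.3 CPM, and Cidec, at 50.7 against 70.4, were lower by less than 1.5-fold, and Adipoq was at 80.4 against 81.4 CPM. Only Lep was higher, at 69.6 against 14.1 CPM, and it is the gene mutated in ob/ob mice. The part of adipocytes in the Pparg values was not tested.

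The liver X receptors sense oxysterols. Nr1h2, the widely expressed form, was at 33.1, 26.4, 24.9 and 22.2 CPM, highest in lean GRf/f muscle and below 1.5-fold in each comparison. Nr1h3 lies at chr2:91184061-91202834 (GRCm38, minus strand) and was at 12.3 CPM in lean GRf/f, 9.87 in lean GRmKO, 11.0 in ob/ob GRf/f and 4.42 in ob/ob GRmKO muscle. Only the last library stood apart, at 92.7 expected counts against 196 to 256 in the other libraries. Its log2 ratio to ob/ob GRf/f was -1.31 (-1.67 to -0.95) and to lean GRmKO -1.16 (-1.52 to -0.79). Nr1h3 is also expressed in macrophages, and the 5 macrophage markers summed to 182, 225, 141 and 87.3 CPM in the same order of groups. Of these, 3 were lower past 1.5-fold in ob/ob GRmKO against ob/ob GRf/f muscle, beside 8.47% of all genes. In ob/ob GRmKO against lean GRmKO muscle 5 were lower, beside 20.0%. The part of macrophages in the Nr1h3 values was not tested. Nr1h4, Nr1i2 and Nr1i3, receptors of bile acids and xenobiotics known mainly from liver and intestine, had at most 11.0 expected counts in any library.

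Of the estrogen-related receptors, which control mitochondrial genes, Esrra was at 81.7, 76.4, 90.4 and 76.4 CPM. Esrrg, found in oxidative muscle, was at 17.1 CPM in lean GRf/f, 19.3 in lean GRmKO, 14.0 in ob/ob GRf/f and 21.5 in ob/ob GRmKO muscle. Its log2 ratio of GRmKO to GRf/f was 0.62 (0.41 to 0.84) in ob/ob mice, past 1.5-fold, and 0.18 (-0.03 to 0.39) in lean mice. Slow fiber markers moved in the same comparisons, with 4 of 8 higher past 1.5-fold in ob/ob (4.70% of all genes) and 3 of 8 in lean GRmKO muscle (5.23%). In ob/ob against lean GRf/f muscle, by contrast, Esrrg was at a log2 ratio of -0.29 (-0.52 to -0.06), while all 8 of these markers were higher (5.43%). Their part in the Esrrg values was not tested. Esrrb was low, at 4.39, 4.70, 6.05 and 6.32 CPM. It was higher in the ob/ob libraries by log2 ratios of 0.46 and 0.43, below 1.5-fold, and the second of these passed it with TMM factors, at 0.63.

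Among the other orphan receptors, Rora, which binds DNA alone and without a classical hormone, had the second highest mean CPM after Rxra, at 97.4, 81.3, 109 and 94.9 CPM, although Nr3c1 was above it in lean GRf/f muscle. Its transcript of 10878 bases put it at 8.80 CPM per kb, the eleventh rank. Nr2f2, which is also known from veins and stromal cells, ranged from 24.8 to 27.5 CPM, and its paralog Nr2f6 lay between 22.9 CPM in lean GRf/f and 29.9 in ob/ob GRmKO muscle, within 1.5-fold in each comparison. Nr2c1 and Nr2c2, the testicular receptors, ranged from 7.87 to 9.88 and from 13.6 to 17.5 CPM. Nr2f6 and Nr2c2 share 987 and 3533 exonic bases with genes on the opposite strand. Nr6a1, the germ cell nuclear factor at chr2:38723370-38927688 (minus strand), was at 2.57 CPM in lean GRf/f, 4.03 in lean GRmKO, 3.11 in ob/ob GRf/f and 1.36 in ob/ob GRmKO muscle. The GRmKO libraries were the extremes, the highest in lean and the lowest in ob/ob mice, and the log2 ratios of GRmKO to GRf/f were 0.65 (0.14 to 1.18) and -1.19 (-1.91 to -0.55). These rest on 28.5 to 80.2 expected counts per library.

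The NR4A receptors Nr4a2 and Nr4a3 are immediate early genes whose transcription is known to be raised quickly by cAMP signaling and by exercise in muscle. The sequence before their starts is shown because both were higher in ob/ob GRmKO than in lean GRmKO muscle. The bases come from RefSeq promoters (GRCm38.p6), which matched 39 of the 43 members, all but Nr3c1, Thra, Hnf4g and Nr5a1. They are printed 5′ to 3′ and end before the first base of any annotated exon, with TGACG and its reverse complement CGTCA, the core of the element bound by the cAMP-responsive factor CREB, in capitals. Nr4a3 is shown at chr4:48045055-48045152 (plus strand, 98 bases) and Nr4a2 at chr2:57124004-57124253 (minus strand, 250 bases).
Nr4a3: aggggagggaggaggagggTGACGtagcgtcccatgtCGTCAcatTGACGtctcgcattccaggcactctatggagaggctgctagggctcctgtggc
Nr4a2: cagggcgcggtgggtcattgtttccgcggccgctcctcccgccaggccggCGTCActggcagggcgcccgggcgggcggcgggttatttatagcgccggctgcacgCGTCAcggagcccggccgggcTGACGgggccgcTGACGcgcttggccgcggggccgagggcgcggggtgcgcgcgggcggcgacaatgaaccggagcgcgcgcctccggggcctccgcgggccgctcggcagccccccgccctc
The Nr4a3 stretch holds 3 matches and that of Nr4a2 holds 4. The 250 bases before the start were 63.6% G or C for Nr4a3 and 80.0% for Nr4a2, against a median of 52.4% over all promoters. How many matches such base content gives by itself was not tested. Over the 250 bases before a start, TGACG or CGTCA was found in 17.8% of 32851 promoters of all genes and in 12 of the 60 promoters of members, each from a different gene. AGAACA or TGTTCT, a core sequence of GR binding sites, was in 16.1% of all promoters, and in neither of the NR4A ones. AGGTCA or TGACCT, the core sequence bound by most nonsteroid receptors, was in 14.0% of all promoters, and in neither of the NR4A ones. The motifs were searched on both strands, and a match is a description of letters, not of binding.

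Nr4a3 was at 21.4 CPM in lean GRf/f, 6.66 in lean GRmKO, 16.8 in ob/ob GRf/f and 19.0 in ob/ob GRmKO muscle. The lean GRmKO library stood apart at 133 expected counts, against 353 to 443 in the other libraries. The log2 ratio was -1.68 (-1.97 to -1.39) for lean GRmKO against lean GRf/f, the largest difference of any member between genotypes, and 1.51 (1.22 to 1.80) for ob/ob GRmKO against lean GRmKO muscle. In ob/ob mice, the genotypes differed by 0.18 (-0.03 to 0.39). Nr4a2 was at 1.78, 2.26, 1.71 and 4.34 CPM, so that here ob/ob GRmKO was the library that stood apart. Its log2 ratio was 1.35 (0.77 to 1.94) to ob/ob GRf/f and 0.94 (0.41 to 1.49) to lean GRmKO muscle, on 35.8 to 90.8 expected counts. The 2 paralogs therefore did not share a pattern across the 4 libraries. A set of 7 other immediate early genes, chosen after these values were seen, summed to 77.4 CPM in lean GRf/f, 215 in lean GRmKO, 179 in ob/ob GRf/f and 196 in ob/ob GRmKO muscle. In lean GRmKO against lean GRf/f muscle, where Nr4a3 was lower, 5 of these 7 were higher, beside 5.23% of all genes. Among them, Fos was at 49.3 against 11.3 CPM and Egr1 at 61.2 against 15.1 CPM. Fosb had no counts in lean GRf/f muscle and 4.23, 5.91 and 4.52 CPM in the other libraries. Atf3 was higher in ob/ob than in lean libraries, at 7.52, 8.26, 23.7 and 12.8 CPM, and Junb was highest in lean GRmKO muscle, at 24.0, 60.6, 29.7 and 35.4 CPM.

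**Figure D3:**
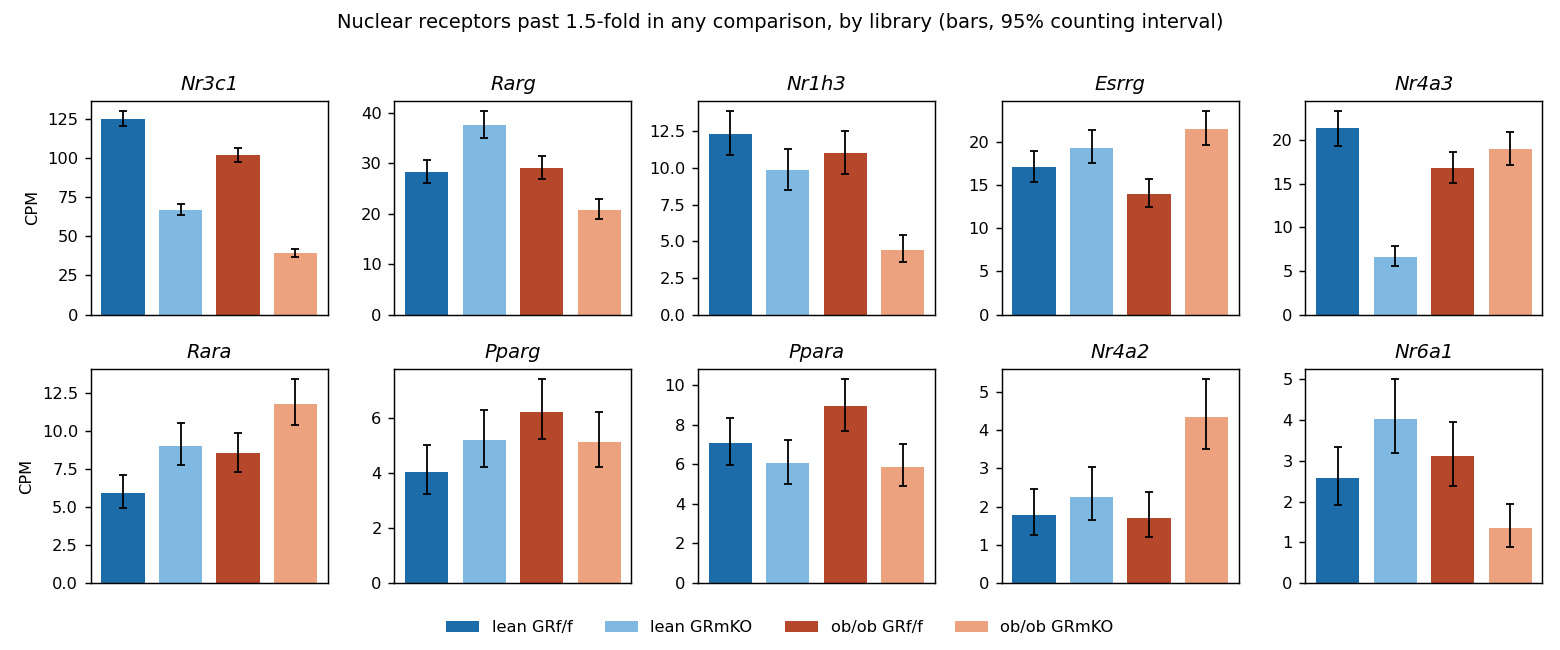
CPM of the 10 members past 1.5-fold in any comparison, by library, with bars starting at 0 and 95% counting intervals. Nr3c1 is low in both GRmKO libraries, Nr1h3 and Nr6a1 are lowest and Nr4a2 is highest in ob/ob GRmKO muscle, and Nr4a3 is lowest in lean GRmKO muscle.

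The 16 members below a mean of 50 expected counts are sparse in this muscle. Nr2f1, Rorb, Nr5a2 and Vdr had mean counts between 11.3 and 36.6. The other 12 were below a mean of 10, and 4 of them, Nr2e3, Hnf4g, Nr5a1 and Nr0b1, were at 0 in every library. A count of 0 allows a level up to the upper end of its exact interval, between 0.176 and 0.185 CPM depending on the library. For scale, 3 counts of a library total are 0.143 to 0.151 CPM. The members at 0 include receptors known mainly from other organs, such as Nr5a1 of adrenal and gonad and Nr2e3 of photoreceptors.

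With genotype as the contrast, few members differed. In lean mice, 2 of 27 members (7.41%) were higher past 1.5-fold in GRmKO muscle, Rara and Nr6a1, beside 5.23% of all 11272 genes, and 2 were lower, Nr3c1 and Nr4a3, beside 3.89%. In ob/ob mice, 2 were higher, Esrrg and Nr4a2, beside 4.70% of all genes, and 4 (14.8%) were lower, Nr3c1, Ppara, Nr1h3 and Nr6a1, beside 8.47%. Such small counts are near the background and are no result about the members as a group. The median member differed by a log2 ratio of 0.01 for lean and -0.03 for ob/ob mice, against 0.04 and -0.04 for the median of all genes. Nr3c1 was lower past 1.5-fold in either background, and Nr6a1 passed it in either background in opposite directions.

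**Figure D4:**
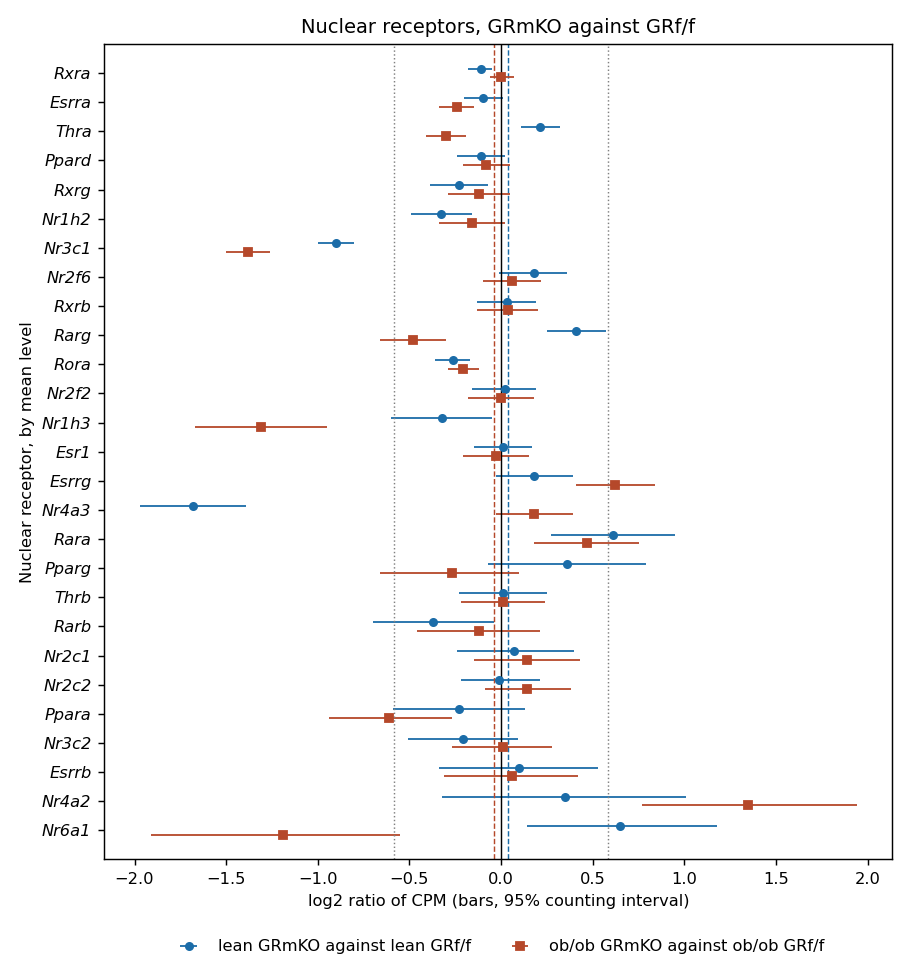
Log2 ratio of CPM in GRmKO against GRf/f muscle for the 27 members, in lean mice (circles) and ob/ob mice (squares), with 95% counting intervals. Dotted lines mark 1.5-fold and dashed lines the median of all genes in each background; Nr3c1 is to the left in both, and Rarg, Thra and Nr6a1 lie on opposite sides of 0.

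With obesity as the contrast, 1 of 27 members was higher past 1.5-fold in ob/ob than in lean GRf/f muscle, Pparg, beside 5.43% of all genes, and 0 were lower, beside 11.7%. In GRmKO muscle 2 were higher, Nr4a2 and Nr4a3, beside 5.01%, and 4 were lower, Nr3c1, Rarg, Nr1h3 and Nr6a1, beside 20.0%. In these comparisons the median of all genes itself was at -0.11 in GRf/f and -0.20 in GRmKO mice, while the median member was at 0.04 and -0.00. With TMM factors, which put the median gene at 0.01 in both, the shares of all genes were 8.06% higher and 8.06% lower in GRf/f mice, and 9.74% and 11.9% in GRmKO mice. On that scale Rara joined the members past 1.5-fold in GRf/f mice, at 0.64, Rara and Esrrb joined in GRmKO mice, at 0.59 and 0.63, and Nr3c1 in GRmKO mice dropped out at -0.57. The 4 comparisons share libraries, since each library enters 2 of them, and agreement between a genotype and an obesity comparison that share a library is not independent.

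**Figure D5:**
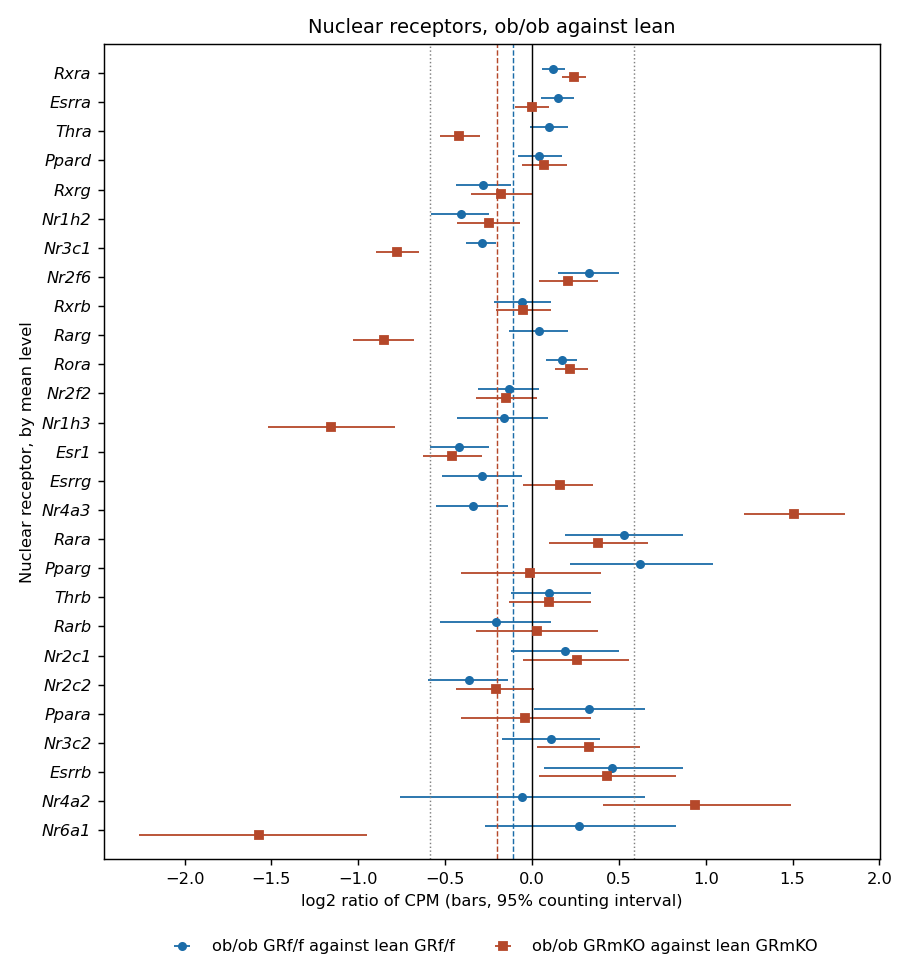
Log2 ratio of CPM in ob/ob against lean muscle for the 27 members, in GRf/f mice (circles) and GRmKO mice (squares), with 95% counting intervals. Dotted lines mark 1.5-fold and dashed lines the median of all genes, at -0.11 and -0.20; the members lie within 1.5-fold in GRf/f mice except Pparg, and 6 lie outside it in GRmKO mice.

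The genes that work with nuclear receptors were examined in lists. The counts in these lists stand beside the shares of all genes past 1.5-fold. Between genotypes these shares were 5.23% higher and 3.89% lower in lean mice, and 4.70% and 8.47% in ob/ob mice. For ob/ob against lean they were 5.43% and 11.7% in GRf/f mice, and 5.01% and 20.0% in GRmKO mice. The list counts use CPM without further scaling, and the median of all genes was then at -0.11 and -0.20 for ob/ob against lean. TMM factors raise these ratios for every gene, so list genes near 1.5-fold in the obesity comparisons can change sides. Coactivators and corepressors link receptors to transcription. Of 13 coactivators, 1 was past 1.5-fold between genotypes in lean mice, Pprc1, lower at a log2 ratio of -0.63, and none in the other 3 comparisons on this scale. In ob/ob against lean GRmKO muscle, Kat2b at 0.58, Ppargc1a at 0.53 and Perm1 at 0.49 were short of it, and Ppargc1b was at -0.49. Their absence from the count therefore depends on the scaling. Of 9 corepressors, Nrip1 was lower in lean GRmKO muscle at -0.65, and Tbl1xr1 was higher in ob/ob GRmKO than in ob/ob GRf/f muscle at 0.69, and in GRf/f mice it was at -0.77 for ob/ob against lean. Of the 10 chaperones of unliganded steroid receptors, Fkbp5, itself a classical GR target, was lower in GRmKO muscle in both backgrounds, from 88.8 to 22.8 CPM in lean and from 106 to 26.1 CPM in ob/ob mice. The remaining chaperones were within 1.5-fold between genotypes, and 3 of the 10 (Hsp90aa1, Dnajb1 and Ppid) were lower for ob/ob against lean GRf/f muscle.

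Other lists held genes that supply receptor ligands. Hsd11b1, which regenerates active glucocorticoid inside cells, was at 15.7 CPM in lean GRf/f, 16.6 in lean GRmKO, 9.29 in ob/ob GRf/f and 5.16 in ob/ob GRmKO muscle, with both ob/ob libraries below both lean ones. Dio2, which activates thyroid hormone, was at 4.35, 8.56, 4.29 and 6.47 CPM and was higher in GRmKO muscle of both backgrounds, the only one of the 4 compared genes of its list to pass 1.5-fold between genotypes. Among 7 compared genes of retinoid metabolism, Aldh1a1, a retinaldehyde dehydrogenase, was at 67.6, 31.6, 110 and 15.3 CPM and was lower in GRmKO muscle of both backgrounds, at log2 ratios of -1.10 and -2.85. Aldh1a2, which makes retinoic acid in development, was at 27.3 and 37.7 CPM in the lean libraries and was lower in the ob/ob ones, at log2 ratios of -1.90 and -1.91. Cyp26b1, which breaks down retinoic acid, was at 3.85, 4.31, 10.1 and 5.93 CPM. Cyp27a1, which makes 27-hydroxycholesterol, was at 88.8, 60.3, 58.7 and 25.3 CPM, and like Nr1h3 was lowest in ob/ob GRmKO muscle. Of the 3 fatty acid carriers, Fabp4, which is an adipocyte and endothelial gene, was lower with obesity in either genotype, at -0.65 and -0.82.

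Established targets of the receptors were compared in the same way. Of 13 GR targets, 7 were lower and none higher in lean GRmKO muscle, with a median log2 ratio of -0.61, and 3 were lower and 1 higher in ob/ob GRmKO muscle, with a median of -0.17. Fkbp5, Zbtb16 and Glul were lower in both. Ddit4 and Glul were at 93.1 and 653 CPM in lean GRf/f and at 23.9 and 176 CPM in ob/ob GRmKO muscle. Between ob/ob and lean GRf/f muscle 8 of the 13 were lower, among them Ddit4 at -1.84 and Cebpd at -1.55. Of these, Ddit4, Glul, Cebpd and Mt1, a metallothionein, were lower with obesity in both genotypes. Mt1 was at -0.86 in GRf/f and -0.87 in GRmKO mice, and in GRmKO mice Ddit4, Glul and Cebpd were at -0.64, -0.77 and -0.90. In that comparison Nr3c1, at -0.78, was short of 1.5-fold with TMM factors, at -0.57. The factors shift every gene alike, so Ddit4 and Glul in GRmKO mice also fall short of 1.5-fold on that scale. Of the 18 PPAR targets compared, none was past 1.5-fold between lean genotypes. In ob/ob mice, Pdk4, which spares glucose, and Ucp3 were higher and Plin5 lower in GRmKO than in GRf/f muscle, at 1.10 and 0.75 on the log2 scale for the first 2, with Plin5 at 7.69 against 15.4 CPM. For ob/ob against lean GRf/f muscle 3 passed 1.5-fold, Plin5 at 1.56, Pdk4 at -1.21 and Ucp3 at -1.29, and in GRmKO mice only Cpt1a did, at -0.61. Pdk4 was at 402, 349, 173 and 372 CPM, so that the ob/ob GRf/f library stood apart. Of the 10 ERR targets, mainly genes of the citrate cycle and respiratory chain, none passed 1.5-fold between genotypes in either background, and 1, Mfn2, was higher in ob/ob than in lean GRmKO muscle.

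Of 8 thyroid hormone receptor targets, Atp2a2, the calcium pump of slow fibers, was higher in all 4 comparisons, at 82.6, 135, 152 and 331 CPM, and Hr, a corepressor, was lower in GRmKO muscle of both backgrounds, at 106, 55.8, 81.0 and 53.4 CPM. Thrsp, which promotes lipogenesis, was lower in ob/ob against lean GRf/f muscle, at -1.20. Atp2a2 is also a slow fiber marker, and all 8 of those were higher past 1.5-fold in ob/ob than in lean muscle of either genotype. Of 10 liver X receptor targets, Scd1, a fatty acid desaturase, was lower in lean GRmKO muscle, at 457 against 795 CPM, and stood at 912 CPM in ob/ob GRmKO muscle, and Apoe was lower in ob/ob GRmKO muscle, at -0.66 to ob/ob GRf/f and -1.22 to lean GRmKO muscle. Scd2, another desaturase, was higher in ob/ob against lean GRf/f muscle, at 0.65. Abca1 and Abcg1, which export cholesterol, differed by at most 0.26 in size in any comparison. Of 5 retinoic acid receptor targets compared, Rarres2 was lower with obesity, at -0.84 in GRf/f and -1.16 in GRmKO mice. The lists overlap, as Klf9, Pdk4, Ucp3, Fabp3, Fkbp5, Dhrs3 and Cyp26b1 each stand in more than 1 of them.

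Other cell types of the muscle moved with the groups as well. Endothelial markers summed to 419, 497, 330 and 298 CPM, and all 5 were lower past 1.5-fold in ob/ob than in lean GRmKO muscle. In that comparison 20.0% of all genes were lower and the median gene was at -0.20. Markers of fibroblasts summed to 5171, 5545, 10327 and 5552 CPM. The high sum in ob/ob GRf/f muscle rested on the collagens Col1a1 and Col1a2, at log2 ratios of 1.68 and 1.43 to lean GRf/f muscle, while Pdgfra was at 0.08 and Dcn at -0.50. Markers of red blood cells summed to 2097, 2007, 915 and 821 CPM. All 4 were lower in ob/ob muscle of either genotype, beside 11.7% of all genes in GRf/f and 20.0% in GRmKO mice. Smooth muscle markers summed to 323, 304, 285 and 256 CPM and Schwann cell markers to 346, 434, 485 and 421 CPM. Satellite cell markers were low, at 12.8, 18.2, 22.2 and 18.6 CPM, and the 4 hepatocyte markers at 7.06, 14.5, 5.42 and 25.7 CPM. No marker of any of these cell type lists was at 0 in any library. The part of these shifts in the member values was not tested.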

How the data were processed

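RNA-seq of gastrocnemius muscle was measured in 4 libraries, 1 per group, each of the pooled RNA of 3 mice. Per the study's methods, the authors sequenced 100-bp paired-end reads, quantified protein-coding GENCODE transcripts with Salmon 1.2.1, and used tximport (lengthScaledTPM) in R 3.5.0 for gene-level values, keeping the entry of a repeated name with the highest sum. What the authors deposited are expected counts per gene name, which are not whole numbers and are not scaled between libraries.

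CPM used the total of all gene names. Levels per kb and coordinates used GENCODE M21 (GRCm38), in which all 43 members' listed transcripts kept their name. Exact Clopper-Pearson intervals were computed on rounded counts at 95%. With 1 library per group, genes with a mean of at least 50 counts were compared by fold, and 1.5-fold was the size counted. The NOISeq-sim method of the study was not used, because its probabilities come from simulated replicates. The procedure was tested on simulated counts that held counting error only and changes of 2-fold or more. That test does not cover changes of 1.5-fold or variation between mice. Members, lists and thresholds were chosen with earlier results of these data known. Members with a mean of at least 50 counts were named with their values. Cell type markers were given by counts and sums, with single markers named beside a sum chosen after their values were seen. Genes of the other lists were named where they passed 1.5-fold in the same direction in both genotype or both obesity comparisons, or were 1 of the 2 largest such differences of their list. Abca1, Abcg1 and the coactivators short of 1.5-fold were added after their values were seen. A gene of these lists that met the rule is not reported here. Scaling factors were from edgeR 4.0.16 (TMM) and DESeq2 1.42.0 in R 4.3.3, on rounded counts. Other alternatives were the library size without the 50 most abundant genes, other filters, 2-fold, and other transcript lengths. Python 3.11.15, numpy 2.4.6, pandas 2.3.3, scipy 1.17.1 and matplotlib 3.10.9 were used.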

Additional observations from a re-analysis of the deposited data

Results flagged for a closer look

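For 4 members, the ratio under the same contrast had opposite signs in 2 groups, each beyond its counting error. The difference between the 2 ratios was not tested, since each group has 1 library. For GRmKO against GRf/f, Nr6a1 went from a log2 ratio of 0.65 in lean to -1.19 in ob/ob mice, a difference of -1.84. Rarg went from 0.41 to -0.48, a difference of -0.89, and Thra from 0.21 to -0.30, a difference of -0.51. For ob/ob against lean, Nr4a3 went from -0.34 in GRf/f to 1.51 in GRmKO mice, a difference of 1.86.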

How the results depend on the processing

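Leaving out a library was not possible with 1 per group. No paired analysis was possible because each group is 1 library of pooled RNA, without replicates to pair. With TMM and with DESeq2 factors, 1 member was higher in lean GRmKO against lean GRf/f muscle (without Rara). On both scales 2 were higher in ob/ob against lean GRf/f muscle and 4 in ob/ob against lean GRmKO muscle. The shares of all genes higher in these comparisons were 4.41%, 8.06% and 9.74% with TMM factors. With DESeq2 factors they were 4.45% and 8.12% in the first 2, and slightly above the TMM share in the last. Ppara was not past 1.5-fold under any of the 3 other scalings. At a mean of at least 10 counts, 1 member (Vdr) was lower in ob/ob against lean GRf/f muscle, beside 15.7% of all genes. Vdr also became lower in lean GRmKO against lean GRf/f muscle, at 0.503 against 0.869 CPM (6.85% of all genes). Nr2f1 was lower in ob/ob GRmKO muscle, at 1.06 CPM against 2.34 in ob/ob GRf/f (11.4%) and 2.08 in lean GRmKO muscle (23.3%). Rorb was lower in ob/ob against lean GRmKO muscle, at 0.771 against 1.43 CPM. Where every library had to hold a count above 0, 4 members were lower in lean GRmKO against lean GRf/f (7.76% of all genes), and 2 were higher (7.99%) and 1 lower (16.5%) in ob/ob against lean GRf/f muscle. At 2-fold, 0 were higher (1.65% of all genes) and 1 lower (1.45%) in lean GRmKO against lean GRf/f. In ob/ob GRmKO against ob/ob GRf/f, 1 was higher (1.71%), and Nr3c1, Nr1h3 and Nr6a1 were lower (2.52%). In ob/ob against lean GRf/f, 0 were higher (2.05%) and none lower (3.23%). In ob/ob against lean GRmKO muscle, 1 was higher (1.73%) and 2 lower (7.06%). These changes follow from the scaling, the genes admitted or the threshold. Divided by the median transcript length of a gene, an alternative chosen after seeing the data, mean shares over the libraries were 22.9% for retinoid X receptors, 22.5% for estrogen-related receptors, 17.0% for thyroid hormone, retinoic acid and vitamin D receptors, 11.8% for lipid sensors and 10.5% for steroid receptors, and 13 in place of 9 members reached 10 CPM per kb. Of 324 single-member ratios under the 3 other scalings, 285 stayed within the counting interval of the value given and 39 did not, and 0 that had passed 1.5-fold changed sign. Members below about 50 counts have intervals too wide for a 1.5-fold difference to be read.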
